A study of Mus musculus with 8 samples.

Results

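The mRNA levels of 45 genes for lysosomal enzymes, lysosomal membrane proteins and the mannose-6-phosphate sorting machinery were examined in mouse liver. They were taken by gene symbol from the 19642 genes of the deposited table, and all 45 were found there. The members comprise 7 membrane proteins, 11 proteases, 8 glycosidases of oligosaccharides, 6 enzymes of glycosaminoglycan breakdown, 6 enzymes or activators of lipid breakdown, progranulin, 4 genes of mannose-6-phosphate tagging and receptors, and 2 transcription factors. RNA-seq was performed on livers of 4 WT mice and 4 N-LKO mice, male and of C57BL6 background, all fed CD (normal chow), with 1 library per mouse. N-LKO mice carry loxP sites in Nus1, the gene for NgBR, and albumin-Cre for deletion in hepatocytes. Whether all other cells of these livers keep the gene was not measured in this RNA of whole liver. The sources used here do not say whether the WT mice carried loxP sites or Cre. The titles give 8 weeks of CD and the treatment entries give 16 weeks, so the age and the length of the diet are uncertain. The paper's legend for chow-fed livers with 4 mice per group also gives 8 weeks. The library kit is named as one for small RNA, after removal of rRNA, and the table holds whole genes. Depth lay between 14688404 and 18585412 counts in the 8 libraries. Nus1 mRNA was at 88.2 ± 4.14 CPM (SD, n = 4) in WT and 36.7 ± 2.57 CPM (SD, n = 4) in N-LKO, a fall in all 4 knockout livers without overlap. Here CPM stands for counts scaled to a common library size with edgeR's TMM method.

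NgBR is a subunit of cis-prenyltransferase, which makes the lipid from which dolichol phosphate, the carrier of N-glycans in the ER, is formed. Soluble lysosomal hydrolases are N-glycoproteins: in the Golgi, GlcNAc-1-phosphotransferase adds phosphate to mannose residues of their N-glycans, and mannose-6-phosphate receptors carry the tagged enzymes to endosomes. Membrane proteins of the lysosome are also heavily glycosylated but reach it by other routes. The transcription factors TFEB and TFE3 drive many lysosomal genes through a palindromic motif named CLEAR, whose core is the E-box CACGTG. The comparison of N-LKO with WT livers asks whether the mRNA levels of these genes differ when hepatocytes lack NgBR. The counts measure mRNA only, and neither glycosylation, protein amount nor sorting of the enzymes.

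The 8-letter palindrome TCACGTGA, which is that E-box with a further base on each side, was searched in RefSeq promoters of build GRCm38.p6. Each promoter had 300 bases around a gene start. A promoter was present for 40 of the 45 members, in 47 entries. Asah1, Ctsb, Ctsh, Galns and M6pr had no entry. The motif is its own reverse complement, so the search covers both strands. It was found for 7 members, which is 17.5% of the 40, while 1.12% of the 27025 genes with a promoter hold it. The matched stretches of 30 bases are shown because they are the shared letters among members of unlike function, with the motif in capitals and each read 5′ to 3′ on the strand of its gene.
Cln3, chr7:126583340-126583369, minus strand: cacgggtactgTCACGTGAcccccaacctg
Ctsa, chr2:164833749-164833778, plus strand: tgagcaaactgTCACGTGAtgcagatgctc
Ctsa, chr2:164833766-164833795, plus strand: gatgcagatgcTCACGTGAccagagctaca
Ctsd, chr7:142387908-142387937, minus strand: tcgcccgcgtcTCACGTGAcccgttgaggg
Gla, chrX:134601182-134601211, minus strand: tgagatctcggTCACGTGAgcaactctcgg
Gla, chrX:134601215-134601244, minus strand: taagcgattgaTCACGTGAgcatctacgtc
Gnptg, chr17:25240120-25240149, minus strand: ccggctgtcacTCACGTGAccgtgagaccc
Igf2r, chr17:12769696-12769725, minus strand: gccgactcaggTCACGTGAcgctccgggga
Igf2r, chr17:12769737-12769766, minus strand: gaacgaggacgTCACGTGAgcaggaggcgg
Mcoln1, chr8:3500462-3500491, plus strand: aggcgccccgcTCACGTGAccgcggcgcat
The Ctsa, Gla and Igf2r promoters hold 2 copies each. The shorter E-box CACGTG, which lies within the 8-letter motif, is in the promoters of 14 members, or 35% of the 40, and of 8.09% of all genes with a promoter. It adds Lamp1, Glb1, Naglu, Gaa, Sgsh, Ctsl and Ctsf, and the Lamp1 promoter has 4 copies of it. The motif is already known from lysosomal genes, so its higher shares among the members than among all genes are not a finding of these data. A match is a string of letters and not a site shown to be bound.

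The members span a wide range of levels, in which the structural membrane proteins Lamp1 and Lamp2, the sphingolipid activator precursor and some of the cathepsins lead. Per kilobase of exon, Lamp1, a major glycoprotein of the lysosomal membrane, was highest at 191.99 ± 16.2 CPM per kb (SD, n = 4) in WT livers. Psap, the precursor of the saposins that aid the breakdown of sphingolipids, was at 138 ± 10.8 CPM per kb (SD, n = 4). Ctsl, a cysteine protease, was at 127 ± 27.5 CPM per kb (SD, n = 4), and its spread overlaps that of Psap. Among the sorting genes the small cation-dependent receptor M6pr was at 21.6 ± 0.481 CPM per kb (SD, n = 4) and the large cation-independent receptor Igf2r at 3.90 ± 0.447 CPM per kb (SD, n = 4). The phosphotransferase subunits were at 4.997 ± 0.245 CPM per kb (SD, n = 4) for Gnptg and 1.99 ± 0.231 CPM per kb (SD, n = 4) for Gnptab. At the low end were Tfeb at 0.464 ± 0.0836 CPM per kb (SD, n = 4) and Ctsk, a collagen-degrading cathepsin best known from osteoclasts, at 0.183 ± 0.0501 CPM per kb (SD, n = 4). The 45 members together took 4965 ± 89.4 CPM (SD, n = 4) in WT and 4952 ± 49.9 CPM (SD, n = 4) in N-LKO, or 99.7% of the summed WT level.

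**Figure D1:**
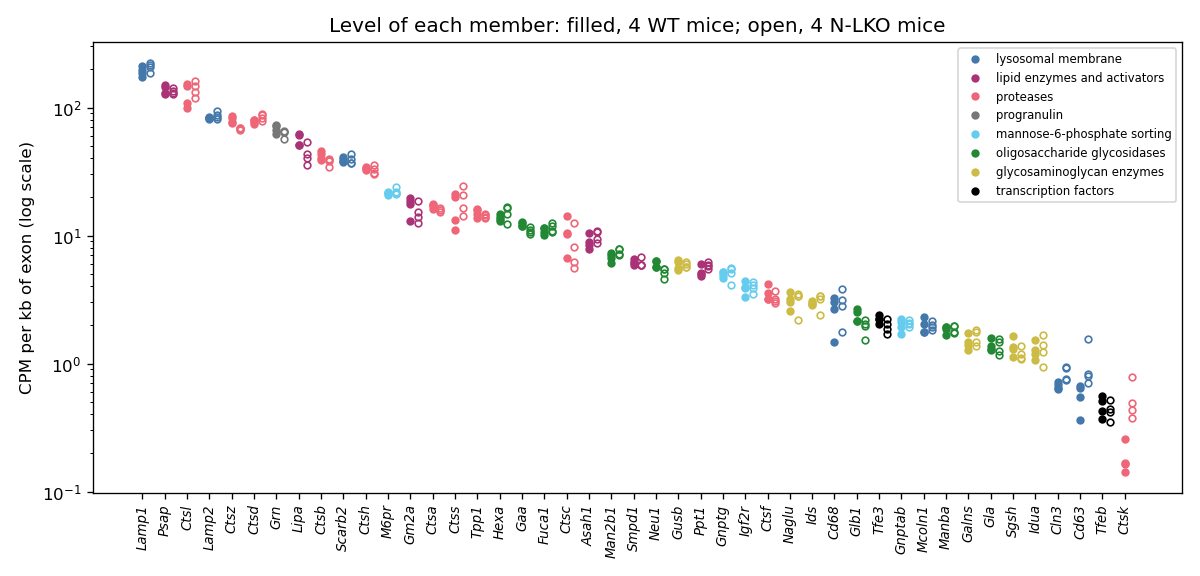
Level of each of the 45 members in CPM per kb of exon on a log scale, with filled points for the 4 WT and open points for the 4 N-LKO livers, colored by role and ordered by the WT mean. Lamp1 is highest at 191.99 CPM per kb and Ctsk lowest at 0.183 CPM per kb in WT, and for most members the filled and open points cover the same range.

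Of the 45 members, 44 passed the filter on low counts, and 0 of these 44 were called at an adjusted p under 0.05 by edgeR's quasi-likelihood test. In the same fit 148 of 14214 genes were called, or 1.04%, of which 117 were higher in N-LKO (0.823% of genes tested) and 31 lower (0.218%). An unadjusted p under 0.05 was reached by 6 members, or 13.6%, close to the 12.8% of all genes tested, with Cd63 and Cln3 higher and Ctsz, Gaa, Neu1 and Lipa lower in N-LKO. DESeq2 called 1 member, Ctsz, or 2.27% of the 44, while it called 371 genes in all, or 2.61% of those it gave an adjusted p. With limma-voom 0 members and 0.886% of all genes tested were called. The log2 fold change of N-LKO over WT was above 0 for 24 members and below 0 for 20, with a median of 0.0045, and the median over all genes tested was -0.0033. The intervals bound what these 8 mice leave room for. For 37 of the 44 members the 95% interval of the fold change lay within 1.5-fold in either direction, against 62.1% of all genes tested, and for 43 it lay within 2-fold. Intervals wider than 1.5-fold were those of Cd63, Cd68, Cln3, Ctsc, Ctss, Glb1 and Lipa. The p-values and intervals rest on the spread among 4 mice of each genotype, moderated by the spread over all genes tested. In RNA of whole liver fewer cells of a type cannot be told apart from less RNA per cell.

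**Figure D2:**
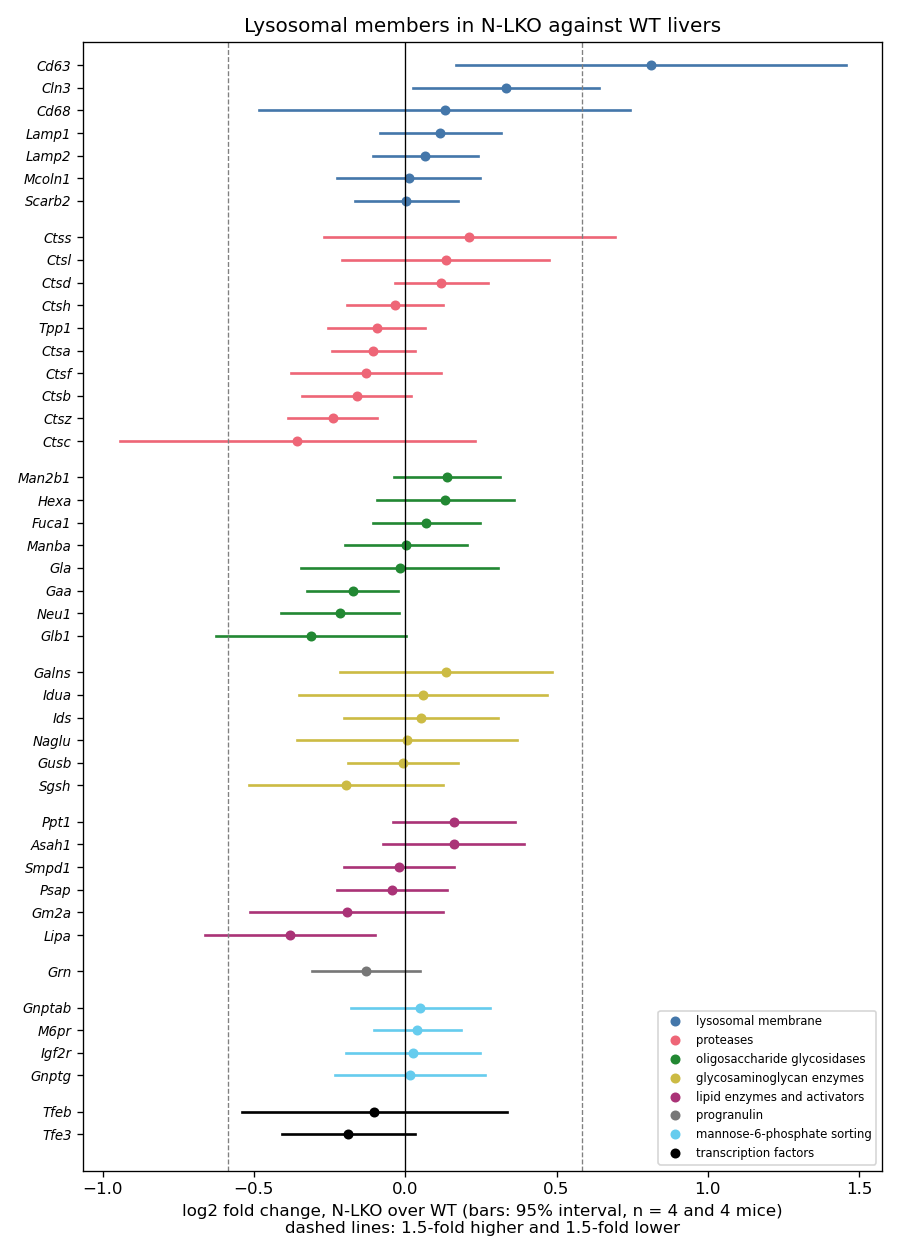
Log2 fold change of N-LKO over WT for the 44 members tested, grouped and colored by role, with bars for the 95% interval and dashed lines at 1.5-fold. The points lie between -0.38 (Lipa) and 0.81 (Cd63), and 0 members were called.

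Lysosomal membrane proteins all had fold changes above 0 by the TMM scaling, 7 of 7 with a median log2 fold change of 0.12, but Scarb2 and Mcoln1 were below 0 when libraries were scaled by their totals alone, and Scarb2 also with no filter. None of the 7 was called. Cd63, a tetraspanin of late endosomes and lysosomes, had the largest difference. It was at 2.35, 2.44, 2.03 and 1.32 CPM in WT livers 1 to 4 and at 2.61, 3.04, 5.77 and 2.92 CPM in N-LKO livers 1 to 4. The genotypes did not overlap, and N-LKO 3 was far above the other 3 of its group. A log2 fold change of 0.81 was found (95% interval 0.17 to 1.46, edgeR adjusted p = 0.260), and without N-LKO 3 it was 0.49 (edgeR adjusted p = 0.532). These levels rest on 24 to 87 counts per mouse. N-LKO 3 also had the highest sum of the 6 cholangiocyte markers, 133 CPM, of which Spp1 gave 105 CPM. With N-LKO 2 it had the highest sums of the 8 fibroblast and stellate cell markers, 376 and 375 CPM. Dcn gave 202 CPM of the sum in N-LKO 3 and 237 CPM of that in N-LKO 2. Dcn, Reln and Lrat were higher in N-LKO 2 than in N-LKO 3, and Lum, Col1a1, Col1a2, Col3a1 and Des were lower. Cd63 in N-LKO 2 was close to that in N-LKO 1 and N-LKO 4. The sum of the 6 lipid-associated macrophage markers was highest in N-LKO 3 as well, at 86.7 CPM. It was 59.1, 63.6 and 62.4 CPM in N-LKO 1, 2 and 4. In N-LKO 3, Lpl gave 57.9 CPM and Cd9 18.9 CPM of this sum. Lpl and Gpnmb were highest in N-LKO 3, Mmp12 and Trem2 in N-LKO 1, and Cd9 and Itgax in N-LKO 2. The 7 monocyte or dendritic cell markers also summed highest in N-LKO 3, at 87.3 CPM, close to WT 4 at 83.7 CPM. The Kupffer cell sum was highest in WT 4, at 223 CPM. The part of these cells in the Cd63 difference was not tested.

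Cln3 encodes a membrane protein of the lysosome whose loss causes juvenile neuronal ceroid lipofuscinosis. Its level was 3.69, 3.94, 4.12 and 3.70 CPM in WT livers 1 to 4 and 4.37, 4.29, 5.37 and 5.43 CPM in N-LKO livers 1 to 4. No N-LKO liver reached down to the WT range, although the gap between the genotypes was small. Its log2 fold change was 0.33 (95% interval 0.03 to 0.64, edgeR adjusted p = 0.351). Exons of Cln3 share 7.65% of their bases with Apobr on the opposite strand, and it is not stated whether the counting used strand. Lamp1 was at 466, 498, 569 and 521 CPM in WT and 597, 499, 557 and 571 CPM in N-LKO livers, and Lamp2, the LAMP protein needed for fusion of autophagosomes with lysosomes, at 781, 812, 793 and 791 CPM in WT and 809.8, 837, 782 and 899 CPM in N-LKO livers. Both overlapped between genotypes, with log2 fold changes of 0.12 (95% interval -0.08 to 0.32) and 0.07 (95% interval -0.11 to 0.24). Scarb2, the receptor that carries glucocerebrosidase without mannose-6-phosphate, had a log2 fold change of 0.0029 (SE 0.0772), and Mcoln1, a calcium channel of the lysosome, one of 0.01 (SE 0.107).

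Of the 10 proteases tested, 3 were above 0 and 7 below, with a median log2 fold change of -0.10, and again 0 were called. Over all genes tested, 49.3% were above 0. Ctsz, a carboxypeptidase of the cathepsin family, had the lowest adjusted p of the members. Its mRNA was at 109.7, 111, 124 and 119 CPM in WT livers 1 to 4 and at 97.8, 99.5, 99.1 and 95.6 CPM in N-LKO livers 1 to 4. All 4 N-LKO livers were below all WT livers, and they lay close together. The mean in N-LKO was 84.7% of that in WT, and the log2 fold change -0.24 (SE 0.0664, 95% interval -0.39 to -0.09, edgeR adjusted p = 0.147). DESeq2 gave an adjusted p of 0.0336 with a log2 fold change of -0.24, while limma-voom gave an adjusted p of 0.149, so the call depends on the tool. Ctsz shares 10 exon bases with Nelfcd on the opposite strand.

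The broad digestive cathepsins overlapped between genotypes. Ctsb, a cysteine protease, was at 245, 235, 279 and 263 CPM in WT and 208, 231, 236 and 239.7 CPM in N-LKO livers, a log2 fold change of -0.16 (95% interval -0.34 to 0.02). Ctsd, the main aspartic protease, was at 183, 188, 188 and 174 CPM in WT and 209.7, 185, 207 and 195 CPM in N-LKO livers, a log2 fold change of 0.12 (95% interval -0.04 to 0.28). The direction thus differed between these enzymes, and neither interval left out 0. Ctsb shares 12.8% of its exon bases with Fdft1 on the opposite strand, and Ctsd shares 34.4% with a predicted gene, Gm49369, on its own strand that was near 0 CPM (0.131). Ctsa, which stabilizes Neu1 and Glb1 in a complex, had a log2 fold change of -0.11 (95% interval -0.24 to 0.03). Ctsh and Tpp1, exopeptidases, and Ctsf were at -0.03, -0.09 and -0.13.

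Ctsl was the member with the highest CPM and varied more among WT mice than between the genotypes. It stood at 958, 995, 706 and 639 CPM in WT livers 1 to 4 and at 1039, 765, 949 and 865 CPM in N-LKO livers 1 to 4. WT 1 and WT 2 were higher than WT 3 and WT 4, and the N-LKO livers spread over most of the WT range and slightly beyond it. This gave a log2 fold change of 0.13 (95% interval -0.21 to 0.48). Cps1, the first enzyme of the urea cycle, was also higher in WT 1 and WT 2, at 8152 and 9287 CPM, than in WT 3 and WT 4, at 4253 and 4982 CPM. It is on the list of 8 hepatocyte markers and was named after its values were seen. Tat and Ass1 on that list split the same way, Ass1 only narrowly (724 CPM in WT 1 and 719 CPM in WT 3). Ttr was lower in WT 1 and WT 2 than in WT 3 and WT 4. Alb, Apoa1, Cyp2e1 and Apob did not separate these pairs. Whatever sets the pairs of mice apart was not tested. Ctsl shares 26.8% of its exon bases with an antisense gene, Gm47123, at 2.50 CPM.

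Ctsk was too low for the filter, with 4 to 7 counts in WT and 10 to 18 in N-LKO livers. Its level was 0.214, 0.250, 0.254 and 0.386 CPM in WT livers 1 to 4 and 0.567, 0.660, 1.19 and 0.747 CPM in N-LKO livers 1 to 4. Every N-LKO liver was above every WT liver, and N-LKO 3 was again the highest. With no filter the log2 fold change was 1.48 (95% interval 0.59 to 2.36, edgeR adjusted p = 0.150), and at so few counts its size is uncertain. Col1a1, a fibrillar collagen gene of activated stellate cells and fibroblasts, was at 2.60 to 4.64 CPM in WT and 8.11, 6.67, 15.7 and 7.13 CPM in N-LKO livers, also highest in N-LKO 3, and was called (log2 fold change 1.45, edgeR adjusted p = 0.0444). Of the other markers on that list Lum, Col1a2, Col3a1 and Des were also highest in N-LKO 3, while Dcn and Lrat were highest in N-LKO 2 and Reln in WT 4, and Lrat and Reln had log2 fold changes of -0.15 and 0.09. The part of fibroblasts or stellate cells in the Ctsk difference was not tested.

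Ctss and Ctsc are cysteine proteases of leukocytes, the first in antigen presentation and the second in the activation of granule proteases, and Cd68 is a LAMP-family protein used as a macrophage marker. These were the members with the largest spread among WT mice, with standard deviations of log2 CPM of 0.50 for Cd68, 0.45 for Ctss and 0.45 for Ctsc, while the median over the 44 members was 0.12 and over all genes tested 0.18. Cd68 was at 3.79, 3.38, 1.84 and 4.08 CPM in WT and 2.21, 3.96, 4.78 and 3.53 CPM in N-LKO livers. Ctss was at 28.4, 15.1, 18.01 and 27.3 CPM in WT and 19.4, 28.4, 32.9 and 22.4 CPM in N-LKO livers. The genotypes overlapped widely for both, and WT 1, WT 4, N-LKO 2 and N-LKO 3 were the 4 highest livers for each. Of these, WT 1, WT 4 and N-LKO 3 also had the highest sums of the 11 Kupffer cell markers, 219.8, 223 and 204 CPM, while the other 5 livers, N-LKO 2 included, lay between 127 and 154 CPM. The 7 monocyte or dendritic cell markers summed highest in N-LKO 3, WT 4 and N-LKO 2, at 87.3, 83.7 and 68.3 CPM. For that list WT 1, at 61.2 CPM, was below N-LKO 4, at 64.3 CPM. Ctsc did not follow the order of Cd68 and Ctss. It was at 82.8, 39.0, 59.7 and 60.5 CPM in WT and 36.1, 73.3, 32.3 and 47.5 CPM in N-LKO livers, so that N-LKO 3 was lowest. The 95% intervals of the log2 fold change ran from -0.48 to 0.74 for Cd68, -0.27 to 0.69 for Ctss and -0.94 to 0.23 for Ctsc. These intervals do not leave out a change of 1.5-fold, in at least 1 direction, for any of the 3 genes. The part of macrophages, monocytes or dendritic cells in their spread was not tested.

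**Figure D3:**
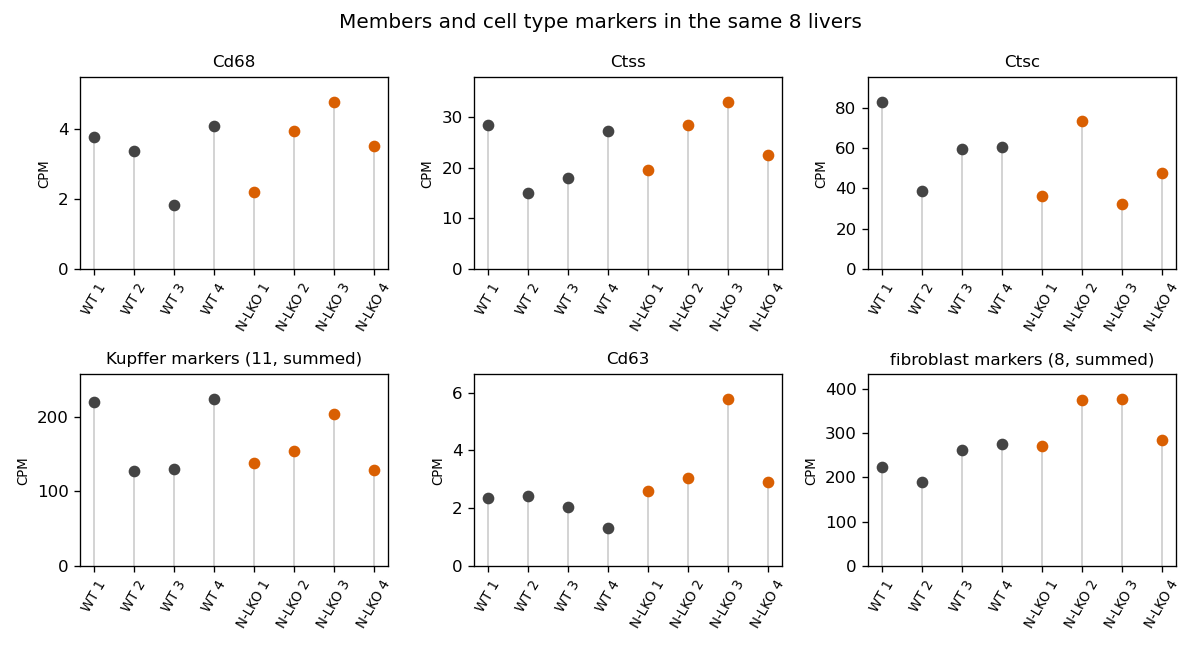
CPM in each of the 8 livers (WT in gray, N-LKO in orange) for Cd68, Ctss, Ctsc and Cd63 and for the summed Kupffer cell and fibroblast or stellate cell markers. WT 1, WT 4 and N-LKO 3 are highest for the Kupffer sum (219.8, 223 and 204 CPM) and are among the 4 highest livers for Ctss, and N-LKO 3 stands out for Cd63 at 5.77 CPM.

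Glycosidases of oligosaccharides were evenly split, with 4 of 8 above 0 by the TMM scaling and a median log2 fold change of -0.01, and 0 were called. Gaa, acid alpha-glucosidase, which breaks down glycogen in lysosomes, was at 57.1, 57.0, 60.2 and 60.6 CPM in WT and 51.1, 55.6, 48.8 and 52.8 CPM in N-LKO livers. Neu1, the lysosomal sialidase, was at 21.1, 23.5, 23.7 and 21.1 CPM in WT and 20.5, 17.1, 18.9 and 20.5 CPM in N-LKO livers. For both, the highest N-LKO value was below the lowest WT value, and for Neu1 the gap between the genotypes was under 1 CPM. The log2 fold change was -0.17 for Gaa (95% interval -0.32 to -0.02, edgeR adjusted p = 0.308) and -0.21 for Neu1 (95% interval -0.41 to -0.02, edgeR adjusted p = 0.343). Glb1, acid beta-galactosidase, was at 6.52, 6.50, 7.67 and 8.06 CPM in WT and 6.58, 4.55, 5.91 and 6.11 CPM in N-LKO livers, with only N-LKO 1 inside the WT range. Its log2 fold change of -0.31 had an interval that reached 0 (95% interval -0.62 to 0.0041, edgeR adjusted p = 0.395). Neu1 and Glb1 act in the complex held by Ctsa, and the 3 genes had log2 fold changes of -0.21, -0.31 and -0.11, of which none was called. This trio was picked out after its values were seen. Man2b1 and Hexa, an alpha-mannosidase and a subunit of beta-hexosaminidase, were at 0.14 and 0.13, the fucosidase Fuca1 at 0.07, the alpha-galactosidase Gla at -0.02 and the beta-mannosidase Manba at 0.0015. Manba was below 0 with library totals, with no filter and in limma-voom.

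Across the 45 members, 6 did not overlap between the genotypes, with Cd63, Cln3 and Ctsk higher and Ctsz, Gaa and Neu1 lower in N-LKO livers. Among the 44 tested the count was 5, or 11.4%, and the same held for 7.52% of all genes tested. With 4 mice of each genotype such a gene has the smallest two-sided p of an exact permutation test, p = 0.0286, before any adjustment for the number of genes.

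**Figure D4:**
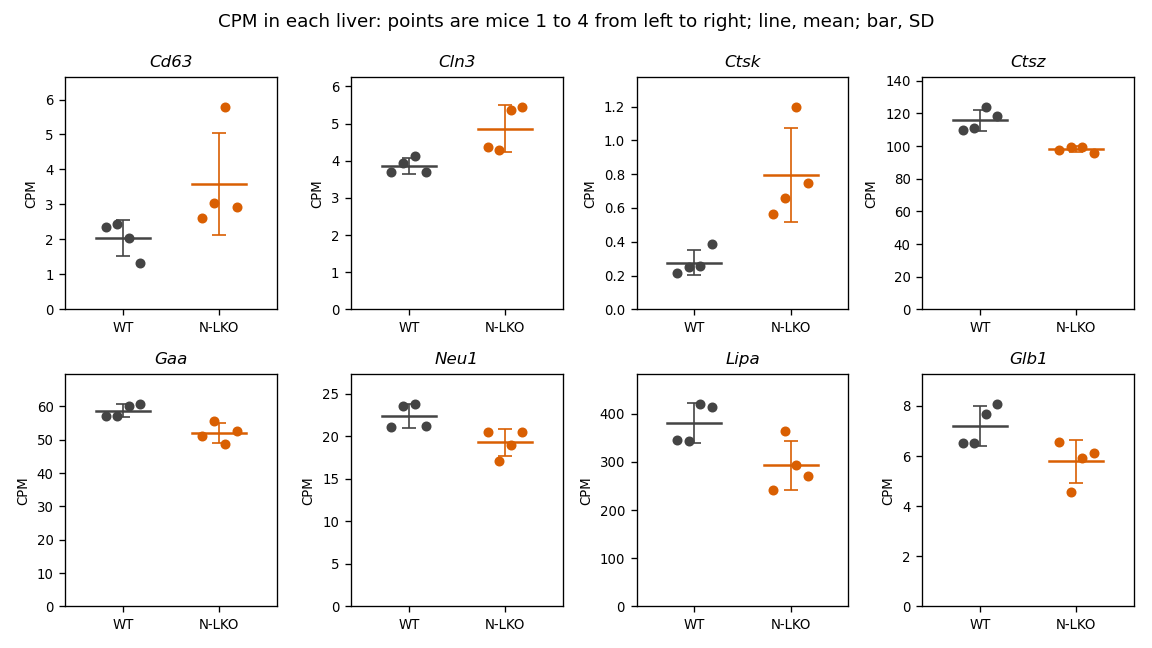
CPM in each liver for the 6 members with no overlap between genotypes and for Lipa and Glb1, with points for mice 1 to 4 of each genotype, a line at the mean and bars for the SD. N-LKO is higher for Cd63, Cln3 and Ctsk, with N-LKO 3 highest for Cd63 (5.77 CPM) and Ctsk (1.19 CPM), and lower for Ctsz, Gaa and Neu1, while a single N-LKO liver lies in the WT range for Lipa (364 CPM) and for Glb1 (6.58 CPM).

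Enzymes of glycosaminoglycan breakdown, which are the genes of several mucopolysaccharidoses, had log2 fold changes from -0.20 (Sgsh, a sulfamidase of heparan sulfate) to 0.13 (Galns, a sulfatase of keratan sulfate). By the TMM scaling 4 of the 6 were above 0, including Naglu at 0.0062, which was below 0 with library totals, with no filter and with a replicate block. The summed level of the 6 was 65.4 ± 3.02 CPM (SD, n = 4) in WT and 65.7 ± 2.91 CPM (SD, n = 4) in N-LKO. Idua and Ids, which remove iduronic acid and its sulfate, were at 0.06 and 0.05, and Gusb, beta-glucuronidase, at -0.0072. All 6 intervals lay within 1.5-fold. Idua shares 3.35% of its exon bases with Slc26a1 on the opposite strand, a gene at 99.7 CPM against 5.42 CPM for Idua, so its count is uncertain if strand was not used, and Sgsh shares 21.6% of its exon bases with Card14.

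Among the genes of lipid breakdown, Lipa had the lowest fold change of the tested members. Lipa encodes lysosomal acid lipase, which hydrolyzes cholesteryl esters and triglycerides. It was at 346, 344, 419 and 414 CPM in WT livers 1 to 4 and at 243, 364, 293 and 271 CPM in N-LKO livers 1 to 4. Of the N-LKO livers, 3 were below the WT range and N-LKO 2 was inside it. The N-LKO mean was 76.9% of the WT mean, and the log2 fold change -0.38 (SE 0.127, 95% interval -0.66 to -0.10, edgeR adjusted p = 0.225), and the gene was not called. With each mouse left out in turn it ran from -0.50 without N-LKO 2 (edgeR adjusted p = 0.0623) to -0.30 without N-LKO 1 (edgeR adjusted p = 0.402), and the highest adjusted p from edgeR was 0.438, without WT 4. Asah1, acid ceramidase, and Ppt1, a palmitoyl-protein thioesterase, were each at 0.16, with intervals of -0.07 to 0.39 and -0.04 to 0.36. Gm2a, the activator for ganglioside GM2, was at -0.19 (95% interval -0.51 to 0.12), and Psap and Smpd1, acid sphingomyelinase, at -0.04 and -0.02. Grn, progranulin, which is cleaved into granulins in lysosomes and aids cathepsin D and lipid breakdown there, was at 238 ± 17.6 CPM (SD, n = 4) in WT and 217 ± 13.3 CPM (SD, n = 4) in N-LKO, a log2 fold change of -0.13 (95% interval -0.31 to 0.05). The NPC genes of cholesterol export, which are not members, had log2 fold changes of -0.18 for Npc1 and 0.10 for Npc2, and neither was called.

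The genes of mannose-6-phosphate tagging and sorting had the smallest differences of the roles, with a median size of the log2 fold change of 0.03 and 0 called. By the TMM scaling all 4 were slightly above 0, from 0.02 to 0.05 on the log2 scale, and with library totals Igf2r and Gnptg were slightly below 0. Gnptab, the precursor of the catalytic subunits of GlcNAc-1-phosphotransferase, was at 13.04, 12.4, 9.95 and 11.3 CPM in WT and 12.3, 11.3, 12.0 and 12.8 CPM in N-LKO livers. Gnptg, its gamma subunit, was at 11.01, 10.6, 11.7 and 11.6 CPM in WT and 12.5, 9.17, 12.3 and 11.4 CPM in N-LKO livers. For both subunits the N-LKO and WT ranges overlapped. The 95% intervals of the log2 fold change ran from -0.18 to 0.28 for Gnptab and from -0.23 to 0.26 for Gnptg. Exons of Gnptg share 49.5% of their bases with Unkl on the opposite strand, which was at 15.7 CPM, so the Gnptg count is uncertain if strand was not used.

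The receptors were as close. Igf2r, the cation-independent receptor, which also clears IGF2, was at 30.8, 36.4, 36.9 and 40.9 CPM in WT and 36.2, 40.5, 32.6 and 38.4 CPM in N-LKO livers. M6pr, the cation-dependent receptor, was at 90.4, 87.2, 92.0 and 90.1 CPM in WT and 91.6, 99.4, 90.3 and 88.3 CPM in N-LKO livers. Both receptors overlapped between genotypes, and M6pr varied little, with a standard deviation of log2 CPM of 0.03 in WT livers. The log2 fold change was 0.03 for Igf2r (95% interval -0.20 to 0.25, edgeR adjusted p = 0.949) and 0.04 for M6pr (95% interval -0.10 to 0.18, edgeR adjusted p = 0.860). Summed, the 4 sorting genes were at 149 ± 3.97 CPM (SD, n = 4) in WT and 153 ± 5.50 CPM (SD, n = 4) in N-LKO.

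The transcription factors of the CLEAR network were both below 0 without a call. Tfeb was at 2.08, 2.88, 2.41 and 3.15 CPM in WT and 2.38, 1.98, 2.92 and 2.51 CPM in N-LKO livers, and Tfe3 at 22.2, 18.8, 20.7 and 20.6 CPM in WT and 15.8, 17.1, 20.6 and 18.9 CPM in N-LKO livers. Tfeb overlapped widely, and for Tfe3 the lowest values were those of N-LKO 1 and N-LKO 2. On the log2 scale the fold change was -0.10 for Tfeb (95% interval -0.54 to 0.33) and -0.19 for Tfe3 (95% interval -0.41 to 0.03). These proteins are controlled largely by phosphorylation and entry into the nucleus, which mRNA levels do not show. The 7 members with TCACGTGA in the promoter had log2 fold changes from -0.11 (Ctsa) to 0.33 (Cln3) with a median of 0.02. For the 32 tested members whose promoter lacks it, the values lay between -0.38 and 0.81, and their median was -0.0028.

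**Figure D5:**
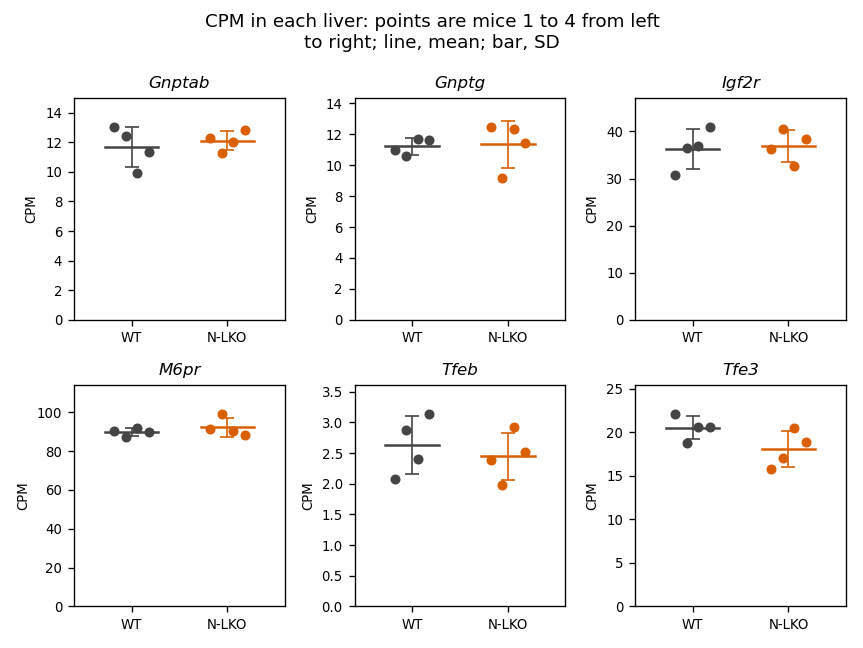
CPM in each liver for the 4 genes of mannose-6-phosphate tagging and receptors and for Tfeb and Tfe3, with points for mice 1 to 4 of each genotype, a line at the mean and bars for the SD. For all 6 genes the WT and N-LKO ranges overlap, and M6pr lies between 87.2 and 99.4 CPM in all 8 livers.

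The other genes of the pathway were described from 6 lists with 122 symbols, of which 113 genes were tested and 0 were called by edgeR, against 1.04% of all genes tested. An unadjusted p under 0.05 was found for 12 of them, or 10.6%, against 12.8% of all genes tested. Ranges did not overlap between the genotypes for 8 of the 113, and the same held for 7.52% of all genes tested. Of these, Hyal1, Creg1, Siae and Ap1s1 were lower and Sort1, Lman1, Rragd and Vps11 higher in N-LKO livers. DESeq2 called 2 of the 113, Hyal1 and Rragd, while its share over all genes was 2.61%. Of 24 further soluble lysosomal proteins, 7 were above 0 and 17 below, with a median log2 fold change of -0.04. Their highest value was that of Pla2g15, a phospholipase, at 0.37 (edgeR adjusted p = 0.289), and their lowest that of Hyal1, a hyaluronidase. Hyal1 was at 74.5, 65.7, 61.6 and 57.2 CPM in WT and 43.5, 52.3, 45.1 and 49.3 CPM in N-LKO livers. Its ranges did not overlap, and its log2 fold change was -0.45 (95% interval -0.66 to -0.24, edgeR adjusted p = 0.0591). Creg1, a glycoprotein of the lysosome, and Siae, a sialic acid esterase, named after their values were seen, also had every N-LKO liver below every WT liver, with log2 fold changes of -0.23 and -0.21.

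Of 18 further membrane proteins, 7 were above 0 and 11 below, from -0.21 (Slc38a9, an amino acid sensor of mTORC1) to 0.29 (Abcb9, a peptide transporter). The 18 subunits of the proton pump that acidifies the lysosome had a median of -0.01, from -0.22 (Atp6v0d2) to 0.16 (Atp6v1g1). Of 27 genes for enzyme maturation, adaptors and retromer, 17 were above 0 and 10 below. Sorl1, a sorting receptor, was highest at 0.43 (edgeR adjusted p = 0.504), and Ap1s1, a subunit of the adaptor that loads mannose-6-phosphate receptors into vesicles, lowest at -0.32 (edgeR adjusted p = 0.156). Sort1, a sorting receptor that bypasses mannose-6-phosphate, named after its values were seen, was at 16.6, 13.5, 16.1 and 13.4 CPM in WT and 16.7, 19.3, 23.2 and 20.3 CPM in N-LKO livers, a log2 fold change of 0.41 (edgeR adjusted p = 0.158). For Sort1, N-LKO 1 was just above the highest WT liver.

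Of 16 genes that control TFEB through mTORC1 or belong to its family, 9 were above 0 and 7 below. Rragd, a Rag GTPase through which mTORC1 is held at the lysosome, was at 1.39, 1.56, 2.09 and 1.71 CPM in WT and 2.78, 3.83, 3.52 and 2.58 CPM in N-LKO livers. The genotypes did not overlap for Rragd, whose log2 fold change was 0.91 (95% interval 0.45 to 1.37, edgeR adjusted p = 0.0763). Tfec, a relative of TFEB, had the lowest value at -0.70 (edgeR adjusted p = 0.371). Of 10 autophagy genes of the CLEAR network 7 were above 0 and 3 below, with Gabarapl1 lowest at -0.28 and Wipi1 highest at 0.45.

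The identity of the tissue and the presence of other cells were checked on 10 marker lists. The 8 hepatocyte markers summed to 83412 to 112979 CPM in WT and 87304 to 103523 CPM in N-LKO livers, and 0 were called. All 11 Kupffer cell and all 6 endothelial markers were tested and 0 were called. Of 7 monocyte or dendritic cell, 8 lymphocyte and 3 neutrophil markers only 5, 2 and 1 passed the filter on low counts, and 0 of these were called. The sums of these 5 lists overlapped between genotypes. Sums did not overlap for lipid-associated macrophage markers, at 41.3 to 49.03 CPM in WT and 59.1 to 86.7 CPM in N-LKO livers, for cholangiocyte markers, at 23.1 to 44.95 and 52.5 to 133 CPM, and for mesothelial markers, at 2.56 to 3.53 and 4.25 to 4.82 CPM. In these 3 lists Gpnmb and Mmp12, Epcam and Spp1, and Wt1 were called as higher in N-LKO, and Trem2 was at 0 counts in WT 4 and Cftr in WT 1. Without the markers called, the sums still did not overlap for the macrophage list, at 40.96 to 48.5 and 52.7 to 78.4 CPM, or the cholangiocyte list, at 5.94 to 11.3 and 12.1 to 22.8 CPM. These sums rest mostly on single genes. Lpl had means of 28.2 CPM in WT and 42.6 CPM in N-LKO, while Cd9 was flat at 17.3 and 17.2 CPM. Sox9 had means of 6.74 and 13.5 CPM with ranges that overlapped, and Krt7 was flat at 0.362 and 0.357 CPM. The mesothelial sums without Wt1 overlapped, at 1.603 to 2.81 and 1.52 to 2.72 CPM. Fibroblast and stellate cell markers summed to 190 to 275 CPM in WT and 269.8 to 376 CPM in N-LKO livers, which overlapped slightly, with Lum and Col1a1 called as higher. Their part in the members' values was not tested.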

How the data were processed

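RNA-seq of liver from 4 WT and 4 N-LKO mice was compared. The authors deposited expected counts, which are estimates with decimals rather than whole reads, and 52.2% of the 19642 genes had a value with decimals. The study's methods name TopHat2 and cuffdiff, the submitters' processing notes name STAR, Partek and mm9, and the deposited coordinates are those of GENCODE M21 on GRCm38, so the counting program and its use of strand are not given in the sources used here. The genotype entry of each sample set its group.

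Counts were rounded, filtered with filterByExpr (minimum count 10, minimum total 15), scaled with TMM and fitted by edgeR 4.0.16 in R 4.3.3 (quasi-likelihood, genotype alone in the model), with Benjamini-Hochberg adjustment over 14214 genes. Calls needed an adjusted p under 0.05. The standard error (SE) is the log2 fold change's size over the root of F, and 95% intervals use the t distribution with 10.8 degrees of freedom. Log2 CPM used a prior count of 2, and levels per kb used the union of GENCODE M21 exons. Depth per mouse was 14688404 to 18585412 counts. The script was tested on simulated data.

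The 45 members, the pathway and marker lists and the rule for values were chosen with earlier results of these data known. By that rule, values per mouse are given for members called, members with no overlap, and Lamp1, Lamp2, Ctsd, Ctsb, Ctsl, Cd68, Igf2r, M6pr, Gnptab, Gnptg, Tfeb and Tfe3. For each pathway list the called genes, or else the highest and lowest log2 fold change, are named. Values per mouse of Ctsc, Ctss, Glb1, Lipa and of pathway and marker genes were added after they were seen. Alternatives were RLE scaling, library totals, no filter, a minimum of 10 counts in each mouse, replicate blocks, DESeq2 1.42.0, limma-voom (limma 3.58.1), a prior count of 0.5 and leaving out each mouse.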

Additional observations from a re-analysis of the deposited data

Results flagged for a closer look

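In 7 of 110 groups of 4 mice the highest or lowest liver lay farther from the other 3 than Dixon's 95% criterion allows, and 5.5 are expected by chance. Among the N-LKO livers, Grn was at 7.63 log2 CPM in N-LKO 4 and at 7.80 to 7.82 in the others. Ids was at 3.62 log2 CPM in N-LKO 1 against 4.04 to 4.11, and Naglu was at 2.57 log2 CPM in N-LKO 2 against 3.17 to 3.24. Smpd1 was at 4.52 log2 CPM in N-LKO 3 against 4.29 to 4.31. The summed level of all 45 members was 4877 CPM in N-LKO 2 and 4975 to 4978 CPM in the others. The sum of the 8 glycosidases of oligosaccharides was 213 CPM in N-LKO 2 and 224 to 226 CPM in the others. Among the WT livers, Nus1 was at 6.36 log2 CPM in WT 1 and at 6.49 to 6.50 in the others, all far above the N-LKO livers.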

How the results depend on the processing

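The number of members called was 0 with RLE scaling, library totals, no filter, a minimum of 10 counts in each mouse, the blocks, limma-voom and each mouse left out, and 1 with DESeq2, where Ctsz passed the threshold. DESeq2 also called 2 pathway genes, where the other settings called 0. The number of genes called was 148, and it was 98 with that minimum count, 371 with DESeq2 and 71 to 173 with a mouse left out. The lowest of these were 71 without WT 4, 76 without N-LKO 3, 83 without WT 2 and 91 without WT 3. The median log2 fold change of the members stayed between -0.03 (library totals) and 0.02. It was 0.0022 when the 6 tested members under 5 CPM were left out, an alternative chosen after seeing the data.

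Replicate numbers did not pair the mice: residual correlations were -0.09 to 0.06 by title number and -0.01 to 0.17 by library number. With a replicate block 131 genes were called by title number and 113 by library number, with 0 members in each. The lowest adjusted p of a member was 0.254 and 0.188, against 0.147 without a block.

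Of 352 values of members under alternatives with all mice, 12 changed sign, all in genes near 0, and 34 of 352 did with a mouse left out. With library totals the log2 fold change was -0.0293 for Scarb2, -0.0246 for Mcoln1, -0.0307 for Manba, -0.0302 for Naglu, -0.0079 for Igf2r and -0.0212 for Gnptg. With no filter it was -0.00593 for Scarb2, -0.00747 for Manba and -0.00117 for Naglu, and in limma-voom -0.000178 for Manba. With a replicate block Naglu was at -0.000144 by title number and -0.00516 by library number. With each mouse left out, values ran from -0.078 to 0.14 for Naglu, -0.0453 to 0.0894 for Igf2r, -0.0453 to 0.0317 for Scarb2, -0.0384 to 0.0977 for Mcoln1, -0.0895 to 0.0547 for Gla, -0.0458 to 0.0306 for Manba, -0.0468 to 0.0404 for Gusb, -0.0348 to 0.11 for Gnptg, -0.0614 to 0.31 for Cd68, -0.0895 to 0.19 for Idua, -0.0786 to 0.00484 for Smpd1 and -0.0191 to 0.11 for Gnptab. The cause of these changes was not tested. Few counts limit Ctsk, at 4 to 18 per mouse, and Cd63.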
